A study of Mus musculus with 6 samples.

Results

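The ionotropic and metabotropic glutamate receptors, their auxiliary subunits and the postsynaptic scaffold were followed in mouse primary hippocampal cells after knockdown of Diras2, a small GTPase of the Ras family. The gene list was drawn up by name, from receptor subunits to the proteins that anchor them, and each gene was read from the brightest of the probe sets annotated with its symbol alone. Of 54 genes listed, 53 had such a probe set, out of 22180 genes tested in all; Grin1 is not analysed here. The knockdown group was 3 samples of cells infected with AAV1/2, an adeno-associated virus, carrying a Diras2 knockdown construct, and the control group was 3 samples infected with the same virus type carrying a scrambled sequence. All 6 came from hippocampi of embryos at day 18, were infected 7 days after seeding and were harvested 7 days after infection, and each was read on 1 Affymetrix array as log2 expression levels. The construct's promoter, the strain of the mice and whether replicates came from separate litters are not given in the sources used here, and p-values therefore speak to the variation among these 6 samples, technical variation included.

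At excitatory synapses, glutamate opens AMPA receptors for fast transmission and NMDA receptors, which pass calcium, for plasticity, while kainate and metabotropic receptors tune excitability and release. AMPA and kainate receptors travel with auxiliary subunits that set their gating and surface number. Beneath the membrane, MAGUK proteins hold receptors in place and are linked through SAPAP to Shank and Homer, and the calcium-activated kinase CaMKII is the main signalling enzyme of this density. As hippocampal neurons mature, NMDA receptors take up the GluN2A subunit beside GluN2B, and GluN3A, a juvenile subunit, declines.

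Diras2 itself was at 7.17, 6.23 and 6.08 in the knockdown arrays, against 10.17, 10.17 and 9.76 in the control arrays, a log2 difference of -3.54 (SE 0.27, adjusted p = 0.00063 by limma). Mean levels of the 6 general neuron markers lay between 8.70 and 12.9, all above the median gene at 5.06. Those of the astrocyte markers lay between 3.11 and 10.5, of the endothelial and fibroblast markers between 3.38 and 8.93 and of the microglial markers between 3.15 and 5.45, and since probe sets differ in brightness these ranges do not rank the cell types. Array medians ran from 4.03 to 4.11. RNA integrity numbers, a measure of RNA quality, were 9.0, 9.3 and 9.2 in the knockdown samples, against 9.2, 9.0 and 8.8 in the control samples. No array was left out of the main fit, and with 3 arrays a group the precision is limited.

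Among the glutamate synapse genes, 3 rose after Diras2 knockdown, Grin2a, Homer2 and Camk2g, and 6 fell, Grin3a, Grm5, Cacng2, Cacng5, Cacng7 and Camk2d. The other 44 did not pass the test, an adjusted p under 0.05 by limma over all genes. Together the 9 were 17.0% of the 53, against 7.8% of all genes tested. The share that rose was 5.66% of the 53, against 4.17% of all genes tested, and the share that fell was 11.3%, against 3.64%. These genes are brighter than most, with a median level of 8.58 against 5.06 over all genes, and among the 11238 genes with a mean level of at least 5 the shares were 7.78% higher and 6.67% lower, together 14.5%. The median log2 difference of the 53 was -0.13, where that of all genes was 0, with 34 genes below 0 and 19 above. The interval of the difference (95%, from the fit) lay within 0.5 log2 units on either side of 0 for 19 of the 53 genes.

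The groups did not overlap for 18 of the 53 genes, 34.0%, where the same held for 25.5% of all genes and 38.5% of those at a level of at least 5. The knockdown arrays lay below all control arrays for 12 of the 53 genes, against 12.1% of all genes and 17.4% of those at that level. They lay above all control arrays for 6 of the 53, against 13.4% and 21.1%. With samples compared pair by pair on their replicate number, the knockdown array was the lower one in all 3 pairs for 24 of the 53 genes, against 22% of all genes and 28.8% of those at a level of at least 5. It was the higher one in all 3 pairs for 9, against 23% and 33.1%. With the replicate number as a block in the fit, 14 of the 53 fell, against 5.64% of all genes and 10% of those at a level of at least 5, and the same 3 rose, against 6.05% and 11.1%. The 8 genes that fell in that fit and not without the block were Gria1, Grik1, Grik2, Cnih2, Neto1, Neto2, Shank2 and Grip1. Leaving out single arrays changed the count that fell far more than the count that rose: 0 fell without knockdown replicate 2 by limma (13 at an unadjusted p under 0.05), 1 without control replicate 2 and 3 without knockdown replicate 3, while Grin2a, Homer2 and Camk2g were called whichever array was left out. Over all genes, the share that fell was 1.49% without knockdown replicate 2, 1.38% without control replicate 2 and 1.66% without knockdown replicate 3.

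**Figure D1:**
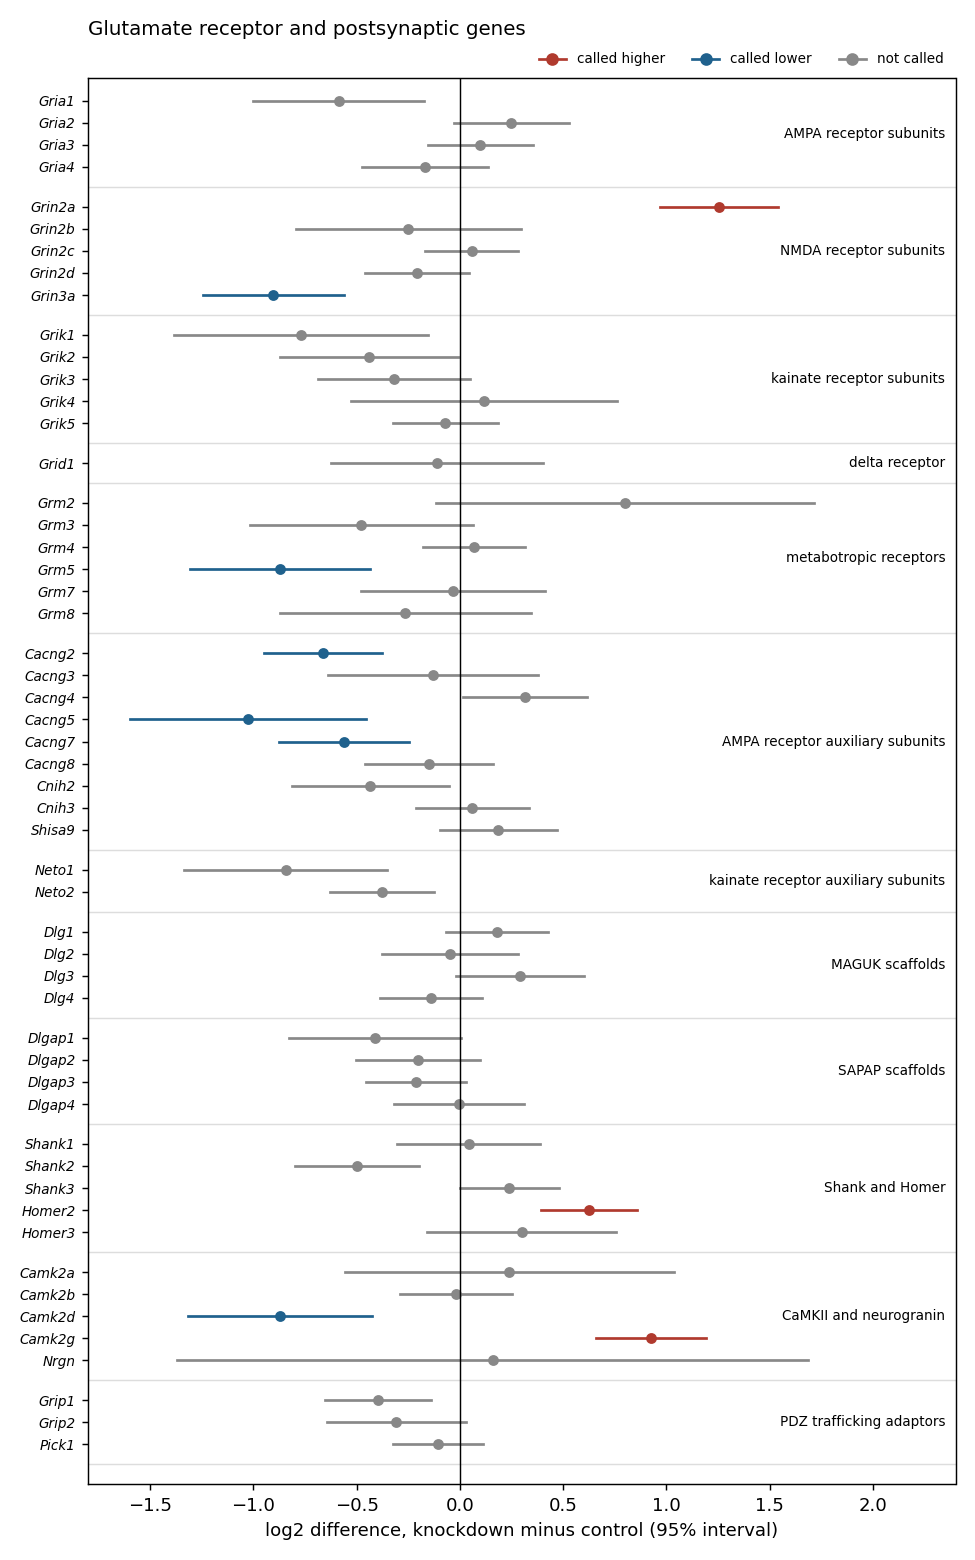
Log2 difference of each of the 53 genes between 3 knockdown and 3 control arrays, as points with 95% intervals from the fit, ordered by role from receptors to scaffold. Red marks the 3 genes that rose, blue the 6 that fell and grey the 44 that did not pass; the rises of Grin2a and Camk2g and the falls of Grin3a and Cacng5 lie farthest from 0 among the called genes.

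The NMDA receptor subunits showed the largest rise of all 53 genes. Grin2a, which encodes GluN2A, the subunit of the mature receptor, was at 8.17, 7.83 and 8.04 in the knockdown arrays, against 6.90, 6.73 and 6.64 in the control arrays. Every knockdown array lay above every control array by more than the range within either group. The means were 8.01 ± 0.17 in the knockdown and 6.76 ± 0.13 in the control (SD, n = 3 each), a log2 difference of 1.26 (SE 0.12, 2.39-fold, adjusted p = 0.00134 by limma). Grin3a, which encodes GluN3A, a subunit that lowers calcium entry through the juvenile receptor, went the other way. It was at 6.83, 6.70 and 6.89 in the knockdown arrays, against 7.44, 7.69 and 8.0 in the control arrays, without overlap. The difference was -0.90 (SE 0.15, 1.87-fold lower, adjusted p = 0.00981 by limma), and its call was lost without knockdown replicate 2 alone among the arrays (adjusted p = 0.0534).

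Grin2b, the partner that GluN2A joins during maturation, did not pass the test. Its levels of 10.06, 9.12 and 9.67 in the knockdown arrays and 10.15, 9.83 and 9.62 in the control arrays overlapped, with a difference of -0.25 and an interval from -0.79 to 0.29. Grin2d, a subunit of embryonic and interneuron receptors, had a difference of -0.21 (adjusted p = 0.341), with all knockdown arrays below the control arrays. A second, dimmer probe set of this gene had one of 0.37 (adjusted p = 0.145 over all probe sets). That probe set was at 5.87, 5.74 and 5.65 in the knockdown arrays, against 5.42, 5.43 and 5.31 in the control arrays. The 2 probe sets thus differ in sign, each without overlap between the groups. Grin2c, typical of cerebellar receptors, had a mean level of 4.11, below the median gene, and a difference of 0.06.

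The AMPA receptor subunits were among the brightest genes on the arrays and none passed the test. Gria1, which encodes GluA1, was at 11.47, 11.02 and 10.87 in the knockdown arrays, against 11.92, 11.74 and 11.46 in the control arrays. Only knockdown replicate 1 reached into the control range, and the difference was -0.59 (SE 0.18, adjusted p = 0.0988 by limma, and 0.0146 with the replicate block). Gria2, which encodes GluA2, the subunit that keeps AMPA receptors from passing calcium, was at 11.66, 11.36 and 11.42 in the knockdown arrays, against 11.38, 11.14 and 11.17 in the control arrays. Its difference was 0.25 with an interval from -0.03 to 0.53 (adjusted p = 0.293). Gria3 and Gria4, the remaining pore-forming subunits, had differences of 0.10 and -0.17, and their groups overlapped.

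Whether related subunits changed unequally was examined as the difference of their log2 levels within each array, for 4 pairs. Grin2a minus Grin2b was -1.89, -1.29 and -1.63 in the knockdown arrays, against -3.25, -3.10 and -2.98 in the control arrays. Gria1 minus Gria2 was -0.19, -0.34 and -0.55 in the knockdown arrays, against 0.54, 0.60 and 0.29 in the control arrays. In both pairs the groups were fully apart, with shifts of 1.51 (SE 0.19) and -0.84 (SE 0.14). The exact two-sided permutation p was 0.1 for each, the smallest that 3 against 3 arrays allow, and 0.2 after adjustment over the 4 pairs. Camk2a minus Camk2b and Dlg4 minus Dlg1 shifted by 0.26 and -0.32 with overlapping groups (exact permutation p = 0.6 and 0.2). The value of such a difference on 1 array has no meaning as a ratio of transcripts, because probe sets differ in brightness, and only its shift between groups is read here.

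**Figure D2:**
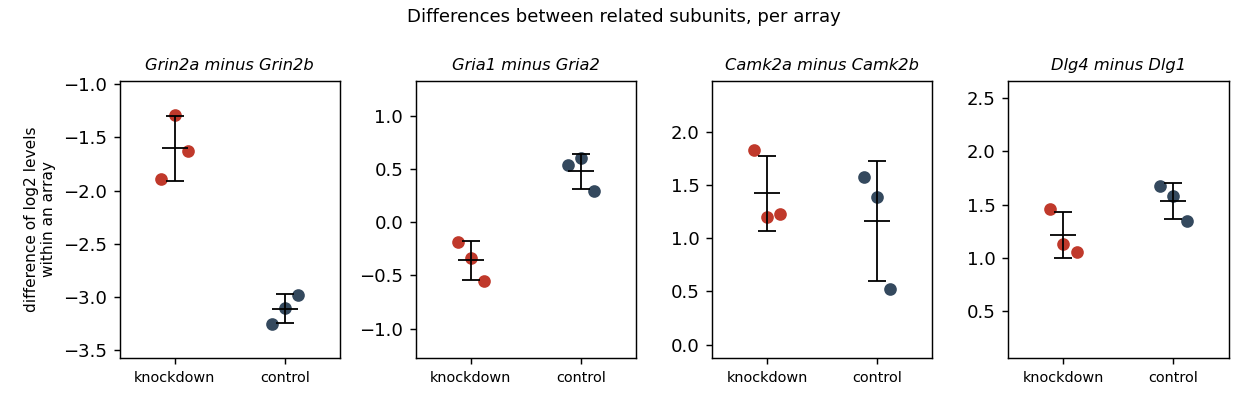
Difference of log2 levels between 2 related genes within each array, 3 knockdown and 3 control arrays per panel, with mean and SD. Grin2a minus Grin2b lies higher and Gria1 minus Gria2 lower in every knockdown array than in any control array, while the groups of the other 2 pairs overlap; each panel covers the same span of log2 units.

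None of the 5 kainate receptor subunits passed the test, and 4 of them lay below 0, with a median difference of -0.32. Grik1, which encodes GluK1, a subunit prominent in hippocampal interneurons, was at 6.77, 7.65 and 7.27 in the knockdown arrays, against 7.51, 8.36 and 8.13 in the control arrays. The differences within same-numbered pairs were alike, at -0.74, -0.71 and -0.86, yet the groups overlapped, with control replicate 1 below knockdown replicate 2. The difference was -0.77 (SE 0.27, adjusted p = 0.139 by limma, and 0.00488 with the replicate block). Grik2, the most widely used kainate subunit, had a difference of -0.44 (adjusted p = 0.230, and 0.0273 with the block), and Grik3 one of -0.32. Grik4 and Grik5, the high-affinity subunits, had differences of 0.12 and -0.07. The delta receptor gene Grid1 had one of -0.11.

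The auxiliary subunits of kainate receptors, Neto1 and Neto2, both lay below all control arrays without passing the test. Neto1, which also associates with NMDA receptors, was at 9.05, 8.76 and 8.27 in the knockdown arrays, against 9.82, 9.52 and 9.27 in the control arrays. Its difference of -0.84 (SE 0.21) missed the threshold narrowly (adjusted p = 0.0520 by limma) and passed it with the replicate block (0.00465). Neto2 was at 9.21, 9.46 and 9.26 in the knockdown arrays, against 9.59, 9.78 and 9.69 in the control arrays, a difference of -0.38 (adjusted p = 0.0835, and 0.0470 with the block).

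Of 6 metabotropic receptors, Grm5 fell and 5 did not pass the test. Grm5, the receptor that couples to phospholipase C and is tied to Homer and Shank, was at 9.06, 8.54 and 8.64 in the knockdown arrays, against 9.90, 9.66 and 9.29 in the control arrays. The groups did not overlap, and the difference was -0.87 (SE 0.19, 1.83-fold lower, adjusted p = 0.0298 by limma). The call was lost without knockdown replicate 2 (0.118), knockdown replicate 3 (0.108), control replicate 1 (0.0651) and control replicate 2 (0.116). It was also lost when RNA integrity entered the fit (0.0901). Grm2, which inhibits adenylyl cyclase, was at 7.33, 9.10 and 8.5 in the knockdown arrays, against 7.45, 7.86 and 7.22 in the control arrays. Knockdown replicate 1 sat within the control range and the other 2 lay above it, and the difference of 0.80 (SE 0.40, adjusted p = 0.307) was called without that array alone (1.29, adjusted p = 0.0249). Grm3, found on glia as well as neurons, had a difference of -0.48 (adjusted p = 0.302), and -0.77 (0.0251) without knockdown replicate 3, whose level of 8.04 lay within the control range. Grm4, Grm7 and Grm8, presynaptic receptors, had differences between -0.26 and 0.07.

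The auxiliary subunits of AMPA receptors held 3 of the 6 genes that fell. The group had 9 measured genes, and the remaining 6 were without a call. The share of all genes called lower was 3.64%, and 6.67% of those at a level of at least 5. Further auxiliary proteins of AMPA receptors, outside this group, are named below. Of these, Gsg1l and Prrt1 were called higher, by 0.52 and 0.76 log2 units, and Shisa6, at -1.38, was not called in the main fit. Cacng2 encodes stargazin, the founding member of the transmembrane AMPA receptor regulatory proteins (TARPs), which bring receptors to the surface and bind the scaffold. It was at 8.49, 8.14 and 8.12 in the knockdown arrays, against 8.98, 8.90 and 8.86 in the control arrays, a difference of -0.66 (SE 0.12, 1.58-fold lower, adjusted p = 0.0166 by limma). The control arrays were tightly grouped and every knockdown array lay below them. A second probe set of Cacng2 was dim, with means of 4.79 in the knockdown and 4.84 in the control, and a difference of -0.05. The call of Cacng2 was lost without knockdown replicate 2 (0.0771), knockdown replicate 3 (0.0704) and control replicate 2 (0.0713). It was also lost when RNA integrity entered the fit (0.0841) and when both probe sets were averaged (0.0608).

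Cacng5 and Cacng7 are the type II TARPs, which change AMPA receptor gating more than surface number, and both fell. Cacng5 was at 6.75, 7.19 and 7.57 in the knockdown arrays, against 7.74, 8.34 and 8.5 in the control arrays, a difference of -1.02 (SE 0.25, 2.03-fold lower, adjusted p = 0.0446 by limma). Cacng7 was at 10.22, 10.12 and 10.04 in the knockdown arrays, against 10.44, 10.69 and 10.93 in the control arrays, a difference of -0.56 (SE 0.14, 1.47-fold lower, adjusted p = 0.0463 by limma). Neither gene's groups overlapped, but both calls were close to the threshold. That of Cacng5 was lost without knockdown replicate 1 (0.108), knockdown replicate 2 (0.137), control replicate 2 (0.163) and control replicate 3 (0.110), and when RNA integrity entered the fit (0.169). That of Cacng7 was lost without every array but control replicate 1 (0.0776 to 0.150), with RNA integrity in the fit (0.153), with quantile normalisation (0.0535) and with median centring (0.0541).

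The other type I TARPs did not pass the test. Cacng3 had a difference of -0.13 (interval -0.64 to 0.38) and Cacng8, the TARP most abundant in hippocampus, one of -0.15 (interval -0.46 to 0.16), and both were lower in the knockdown array of all 3 same-numbered pairs. Whether they differ from Cacng2 was not tested. Cacng4, a TARP of immature neurons and glia, was at 9.31, 9.31 and 9.39 in the knockdown arrays, against 8.75, 9.17 and 9.14 in the control arrays, a difference of 0.32 that did not pass (adjusted p = 0.214) although the groups did not overlap. In the RefSeq gene table Cacng7 and Cacng8 are direct neighbours on chromosome 7, and Cacng4 and Cacng5 lie on chromosome 11 with 1 other gene between them, none of it protein-coding. Within each of these neighbouring pairs 1 gene was called and the other was not; the difference between neighbours was not tested. Cnih2, the cornichon that slows AMPA receptor closing in hippocampal pyramidal cells, was at 10.20, 9.70 and 9.77 in the knockdown arrays, against 10.57, 10.20 and 10.20 in the control arrays. Knockdown replicate 1 equalled the 2 lowest control arrays, and the difference was -0.43 (SE 0.17, adjusted p = 0.176, and 0.0310 with the replicate block). Its relative Cnih3 and Shisa9, the auxiliary subunit CKAMP44, had differences of 0.06 and 0.19.

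Cacng2, Cacng5 and Cacng7 all fell in the main fit, but with RNA integrity in the fit none of them was called. Whether they changed together was not tested. The 250 bases before the transcript start of these 3 TARP genes are given because of their calls in the main fit. They are from RefSeq on GRCm38.p6, 5′ to 3′ on the strand of the gene, and for Cacng5 the outermost of 2 starts was taken. Capitals mark matches on either strand to the GC box GGGCGG or the CCAAT box, the only ones found of 5 motifs searched. The other 3 were TGACG as the CRE half-site, CACGTG as an E-box and the TATA box, spelled TATAAA, and no match overlaps another in these windows.
Cacng2, chr15:78119281-78119530, minus strand: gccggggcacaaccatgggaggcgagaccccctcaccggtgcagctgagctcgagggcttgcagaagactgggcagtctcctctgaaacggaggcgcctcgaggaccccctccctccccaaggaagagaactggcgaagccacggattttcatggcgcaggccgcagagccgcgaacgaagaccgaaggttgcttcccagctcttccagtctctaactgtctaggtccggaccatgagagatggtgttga
Cacng5, chr11:107915056-107915305, minus strand: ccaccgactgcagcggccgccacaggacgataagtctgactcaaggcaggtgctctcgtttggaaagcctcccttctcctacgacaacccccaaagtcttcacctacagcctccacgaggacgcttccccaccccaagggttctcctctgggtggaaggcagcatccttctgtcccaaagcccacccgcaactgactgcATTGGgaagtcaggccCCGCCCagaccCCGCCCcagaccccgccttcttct
Cacng7, chr7:3332575-3332824, plus strand: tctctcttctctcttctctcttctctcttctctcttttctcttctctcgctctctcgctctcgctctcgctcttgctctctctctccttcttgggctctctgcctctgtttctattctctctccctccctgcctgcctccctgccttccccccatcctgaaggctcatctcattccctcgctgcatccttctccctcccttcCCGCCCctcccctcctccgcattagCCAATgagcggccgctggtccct
Cacng5 holds 2 GC boxes and 1 CCAAT match, Cacng7 holds 1 of each, and the Cacng2 window holds no match to any of the 5. A GC box is present in 32.7% of the 32851 promoter windows in the table and CCAAT in 33.8%, and in 27 and 16 of the 54 windows of the 36 genes of this set that the table covers. The CRE half-site is present in 17.8% of the windows in the table, the E-box in 6.02% and the TATA box in 12.4%, and each in 4 of the 54 windows of the set. The windows of Cacng2 and Cacng5 are each 62% G and C, and that of Cacng7 58%, with a long pyrimidine run of ctct repeats at its 5′ end.

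**Figure D3:**
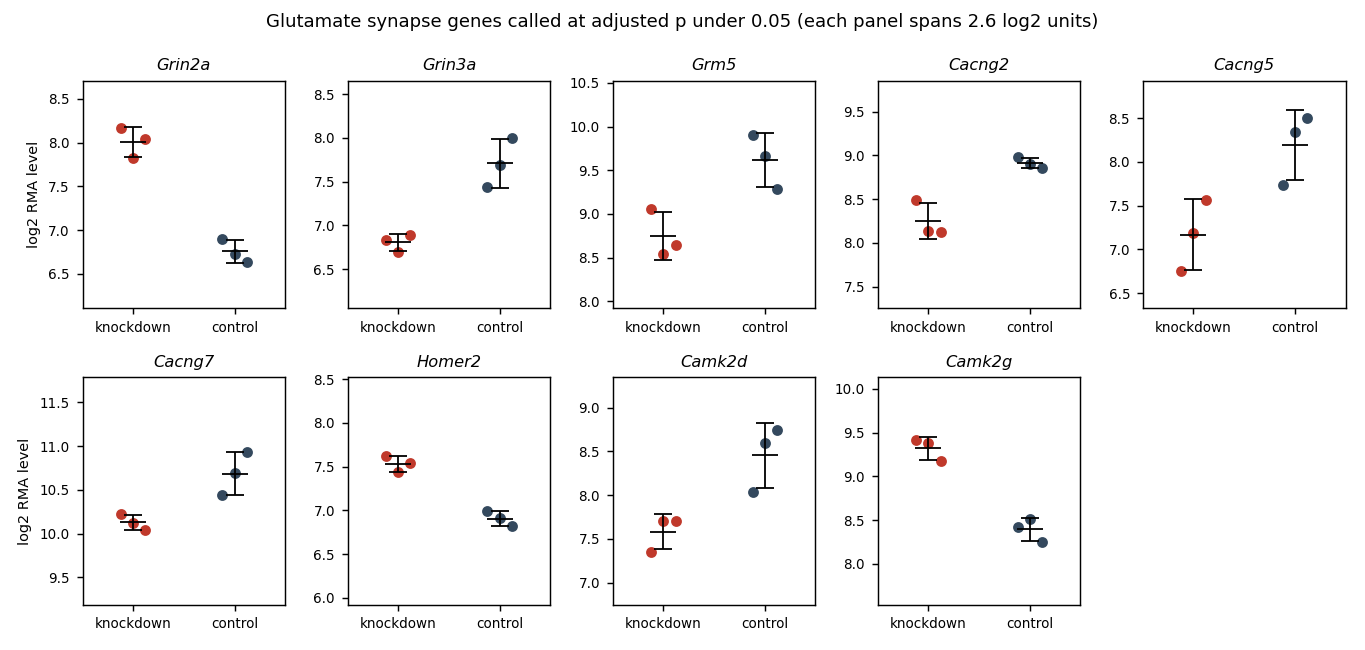
Log2 levels of the 9 called genes on each of 3 knockdown and 3 control arrays (points), with mean and SD; each panel covers the same span of log2 units. In every panel the groups are apart, with Grin2a, Homer2 and Camk2g higher and the other 6 genes lower in the knockdown.

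The MAGUK and SAPAP scaffolds showed no call. Dlg4, which encodes PSD-95, the most abundant scaffold of mature excitatory synapses, was at 9.85, 9.80 and 9.65 in the knockdown arrays, against 10.0, 9.94 and 9.78 in the control arrays. The difference was -0.14 with an interval from -0.39 to 0.11 (adjusted p = 0.541), which leaves out a change of 0.5 log2 units in either direction. Dlg1, Dlg2 and Dlg3, its relatives SAP97, PSD-93 and SAP102, had differences of 0.18, -0.05 and 0.29, and only for Dlg3 did the groups not overlap. The SAPAP genes Dlgap1 to Dlgap4, which bridge MAGUKs to Shank, had differences between -0.41 and 0.00, all with overlapping groups. Dlgap1, the brightest of them, had -0.41 (adjusted p = 0.246, block 0.0528).

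Shank and Homer genes, the deep layer of the scaffold, held 1 rise. Homer2, which links group I metabotropic receptors to Shank and to calcium stores, was at 7.62, 7.44 and 7.54 in the knockdown arrays, against 6.99, 6.91 and 6.82 in the control arrays. The groups were well apart, with means of 7.53 ± 0.09 in the knockdown and 6.91 ± 0.09 in the control (SD, n = 3 each), a difference of 0.63 (SE 0.10, 1.54-fold, adjusted p = 0.00905 by limma). Homer3, its relative, was at 7.97, 7.21 and 7.70 in the knockdown arrays, against 7.57, 7.23 and 7.18 in the control arrays, overlapping, with a difference of 0.30. Shank2 was at 6.38, 6.13 and 6.32 in the knockdown arrays, against 7.00, 6.63 and 6.69 in the control arrays. It lay below all control arrays, with a difference of -0.50 (SE 0.13, adjusted p = 0.0586, and 0.0241 with the replicate block). Shank3 and Shank1, the other master scaffolds, did not pass the test. Shank3 was at 8.47, 8.25 and 8.36 in the knockdown arrays, against 8.16, 8.18 and 8.02 in the control arrays, without overlap. Its difference was 0.24 (interval -0.0005 to 0.48, adjusted p = 0.239 by limma). Shank1 had a difference of 0.04, with overlapping groups.

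Within the CaMKII family the 2 isoforms that dominate neurons did not pass the test, and the 2 broadly expressed isoforms were called in opposite directions. Whether Camk2a and Camk2b differ from Camk2g and Camk2d was not tested. Camk2g, the isoform known to carry calmodulin to the nucleus, was at 9.41, 9.38 and 9.17 in the knockdown arrays, against 8.42, 8.51 and 8.25 in the control arrays, a difference of 0.93 (SE 0.12, 1.90-fold, adjusted p = 0.00324 by limma). Camk2d was at 7.35, 7.70 and 7.70 in the knockdown arrays, against 8.03, 8.59 and 8.74 in the control arrays, a difference of -0.87 (SE 0.19, 1.83-fold lower, adjusted p = 0.0323 by limma). For both, the groups did not overlap. The call of Camk2d was lost without every array but control replicate 1 (0.0782 to 0.131) and with RNA integrity in the fit (0.138), while that of Camk2g held without each array.

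Camk2b, which binds actin in spines, was at 8.90, 8.83 and 8.67 in the knockdown arrays, against 8.99, 8.78 and 8.69 in the control arrays, a difference of -0.02 with an interval from -0.29 to 0.25. Camk2a, the main forebrain isoform, was spread within both groups, at 10.73, 10.03 and 9.90 in the knockdown arrays, against 10.56, 10.17 and 9.21 in the control arrays. Its difference of 0.24 had an interval from -0.56 to 1.04, which is wide beside that of Camk2b. Nrgn, neurogranin, which binds calmodulin in dendrites of excitatory neurons, varied more among the control arrays than any other gene of the set. It was at 9.50, 9.42 and 8.5 in the knockdown arrays, against 10.09, 9.61 and 7.24 in the control arrays. Control replicate 3 lay far below all others, and the difference of 0.16 became -0.71 (adjusted p = 0.258) without it.

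The adaptors that move AMPA receptors through PDZ domains were lower on average without a call. Grip1, which anchors GluA2, was at 7.87, 8.07 and 7.93 in the knockdown arrays, against 8.27, 8.51 and 8.28 in the control arrays, without overlap. The difference was -0.40 (SE 0.11, adjusted p = 0.0745, and 0.0395 with the replicate block). Grip2, its close relative, had a difference of -0.31, and Pick1, a membrane-bending protein that takes receptors inward, one of -0.10.

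**Figure D4:**
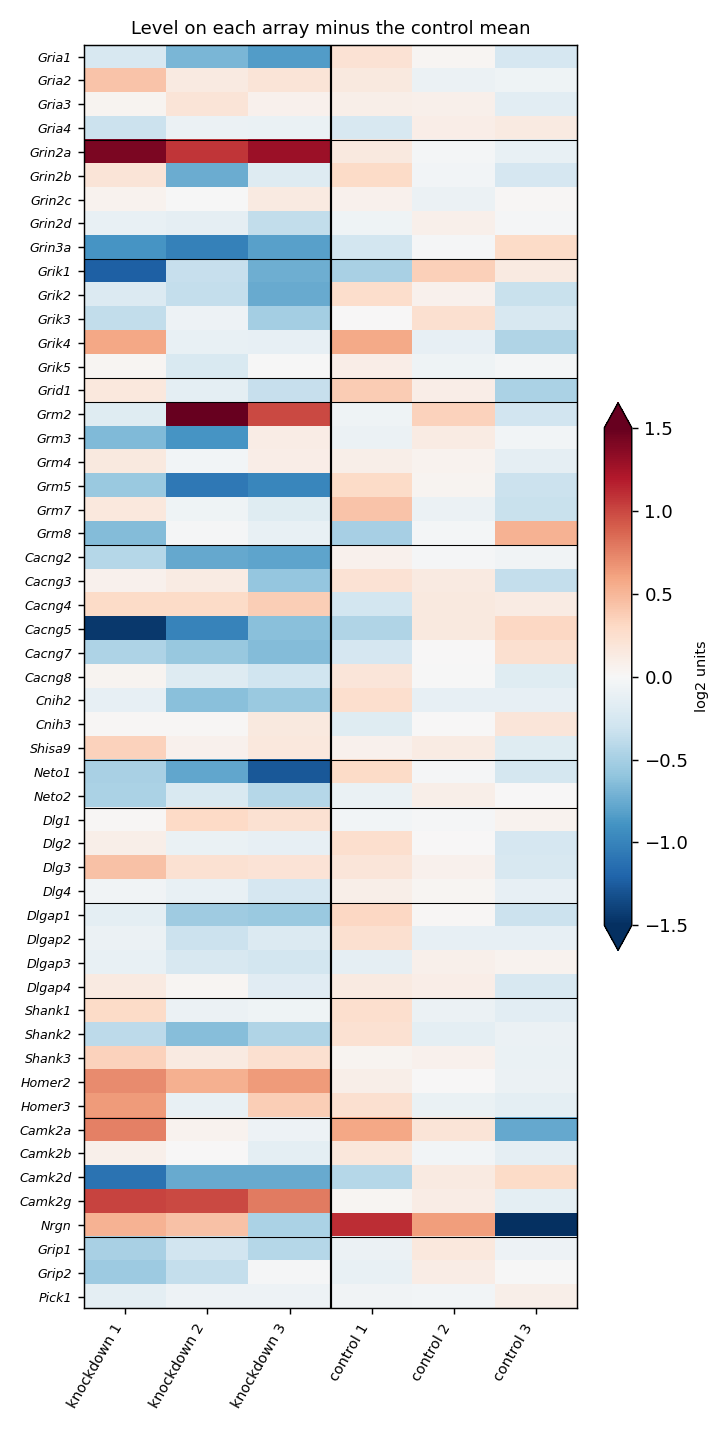
Level of each of the 53 genes on each of the 6 arrays minus its mean over the 3 control arrays, in log2 units, with the knockdown arrays on the left and lines between roles; colours are capped at the ends of the scale. Grin2a, Homer2 and Camk2g are red and Grin3a, Grm5, Cacng2, Cacng5, Cacng7 and Camk2d blue in all 3 knockdown arrays, and the rows of Nrgn and Camk2a are darkest blue in control replicate 3.

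Markers of cell types were set beside these values, because in bulk RNA fewer cells of a type and less RNA per cell cannot be told apart. Excitatory neuron markers had a median difference of 0.01, with 0 of 6 called by limma (0 at an unadjusted p under 0.05) and summed log2 levels of 47.5 to 51.0 in the knockdown arrays and 46.8 to 50.8 in the control arrays. Of 7 inhibitory neuron markers 6 lay below 0, with a median of -0.60 and summed levels of 56.6 to 61.8 in the knockdown arrays and 59.7 to 66.8 in the control arrays. Only Lhx6, an interneuron transcription factor, was called (-1.20, adjusted p = 0.00630 by limma), and 4 of the 7 fell with the replicate block. The share of all genes that fell was 3.64%, and 5.64% with the block. Among genes at a level of at least 5 these shares were 6.67% and 10%. The shares that rose in the main fit were 4.17% of all genes and 7.78% of those at that level. None of the 7 inhibitory markers was near the floor, the lowest being Gad1 with a mean level of 6.72. Of the 53 glutamate synapse genes, 34 lay below 0 and 19 above, and the part of inhibitory neurons in those values was not tested. Of 6 general neuron markers 1 fell, Snap25 of the vesicle fusion machinery (-0.51, adjusted p = 0.0471 by limma), the 6 had a median of -0.06, and summed levels were 65.5 to 67.4 in the knockdown arrays and 66.4 to 68.2 in the control arrays. The call of Snap25 was lost without every array but control replicate 3, with quantile normalisation, with median centring and with RNA integrity in the fit, and Syn1, a synaptic vesicle protein, was called with the replicate block (-0.89, adjusted p = 0.0530, and 0.0125 with the block). In the oligodendrocyte lineage list 1 of 7 markers rose, Pdgfra, by 2.80 (adjusted p = 0.0104 by limma), and its adjusted p was 0.0575 without control replicate 2 and 0.0514 once RNA integrity entered the fit. Astrocyte, microglial, and endothelial and fibroblast lists had medians of -0.01, -0.04 and 0.05. By limma 0 of 7 markers were called in each, and at an unadjusted p under 0.05 the counts were 0, 2 and 1.

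Further genes of the excitatory synapse were taken from 2 other lists. Of 29 measured genes of the postsynaptic side outside the set above, 4 rose, 0 fell and 25 did not pass by limma, with a median difference of 0.04. At an unadjusted p under 0.05 by limma, 8 were higher and 2 lower. The shares that rose and fell were 4.17% and 3.64% of all genes, and 7.78% and 6.67% of those at a level of at least 5. With the replicate block 5 rose and 2 fell, against 6.05% and 5.64% of all genes and 11.1% and 10% of those at that level. Shisa6, an auxiliary protein of AMPA receptors, was at 9.59, 7.93 and 7.88 in the knockdown arrays, against 10.56, 9.92 and 9.06 in the control arrays, overlapping, and was called with the block, not without it (-1.38, adjusted p = 0.161 by limma, and 0.00751 with the block). Rasgrf1, a Ras exchange factor, likewise fell with it (-0.72, 0.0985 and 0.0103), and Abhd6, a lipase that acts on endocannabinoids, rose with it (0.41, 0.0744 and 0.0406); these 3 were named after their values were seen. Nos1, neuronal nitric oxide synthase, which binds PSD-95, rose 2.01-fold to 7.78 ± 0.17 in the knockdown, against 6.77 ± 0.07 in the control (SD, n = 3 each; adjusted p = 0.00237 by limma). Ppp3ca, the catalytic subunit of calcineurin, rose 2.12-fold to 11.43 ± 0.20 in the knockdown, against 10.35 ± 0.53 in the control (adjusted p = 0.0343). Prrt1 and Gsg1l, both auxiliary proteins of AMPA receptors, rose 1.69-fold and 1.43-fold (0.0363 and 0.0402). The calls of Ppp3ca and Prrt1 were lost without every array but control replicate 1, that of Gsg1l without every array but control replicate 3, and all 3 with RNA integrity in the fit. Of 10 measured genes of glutamate supply and clearance, among them the vesicular transporters and the glial uptake carriers, 0 passed the test by limma (0 also at an unadjusted p under 0.05), with differences between -0.33 and 0.25.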

How the data were processed

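Per the submitters' processing notes, the deposited log2 expression levels come from Affymetrix Expression Console, version 1.2.1.20, and its RMA method. RMA forces the arrays onto a common distribution, which hides shifts that nearly all genes share, and it compresses dim signals. Amplification started from 100 ng of total RNA, per the labels' protocols. Detection calls, probe-level intensities and the construct sequence were not used here. Arrays carry no read depth, and their number sets the precision.

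Of 41345 probe sets, 23521 carry 1 gene symbol in GEO's platform annotation, 1814 several and 16010 none here. Each of 22180 genes was read from its brightest probe set over all arrays, and 21994 genes were matched by Entrez number to RefSeq. Knockdown was compared with control in limma 3.58.1 under R 4.3.3 (lmFit, then eBayes), p-values were adjusted by Benjamini-Hochberg over the 22180 genes, and an adjusted p under 0.05 was a call. Folds are the antilog of log2 differences. Pairs of subunits had exact permutation tests in scipy 1.17.1. Figures used matplotlib 3.10.9.

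The gene set, its roles and the other lists were chosen with earlier results of these data known. Full statistics go to the called genes and to a fixed group of central subunits, and other genes are named by role. Deviations from the group means correlated at 0.43, 0.12 and 0.37 across genes for same-numbered pairs and at -0.38 to 0.06 for other pairs. The numbers were thus read as pairing the samples in the pairwise counts and in the block, from the data and not the labels. The main fit, which gave the calls, left the numbers out. P-values with the block rest on a pairing that was read from these same arrays. Because deviations were taken from group means, the correlations of other pairs are not independent of those of same-numbered pairs. The fit was tested on simulated data. Other settings tried were a block on replicate number, single arrays left out, between-array rescaling (quantile or median), 2 cutoffs on level, limma's trend, robust and array-weight options, RNA integrity in the fit, probe sets averaged per gene, and stricter or looser thresholds. A fit over all probe sets was added after seeing the data.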

Additional observations from a re-analysis of the deposited data

How the results depend on the processing

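The 3 genes that rose, Grin2a, Homer2 and Camk2g, were called in all 16 alternative fits, and their count rose to 4 only without knockdown replicate 1, where Grm2 joined them. Homer2 was close to the threshold in some of these fits. Its adjusted p by limma was 0.0483 without control replicate 2 and 0.0485 with RNA integrity in the fit. The count that fell, 6, depended on the processing. It was 14 with the replicate block, 11 with array weights, 10 with either filter on dim genes, which tests fewer genes, 1 with RNA integrity in the fit, 1 at an adjusted p under 0.01 and 11 at one under 0.1, and it ran from 0 to 6 when single arrays were left out. Over all genes tested the share that fell also moved, from 3.64% in the main fit to 5.64% with the block and 5.87% with array weights. With the 2 filters it was 8.93% and 9.04% of the genes left, and with RNA integrity in the fit 1.61%. With single arrays left out that share ran from 1.38% to 3.1%. The block cost no call among the 9 genes and added 8. The median difference of the 53 genes kept its sign in every fit, from -0.20 to -0.06 with single arrays left out. Signs of single genes were followed across fits only for the called genes and the fixed group of central subunits. Of these, Camk2a, Camk2b and Nrgn, none of them called, changed sign in some fits, and the cause was not tested. With single arrays left out, the difference of Camk2a ran from -0.145 without control replicate 3 to 0.53, that of Camk2b from -0.085 to 0.065 without control replicate 1, and that of Nrgn from -0.71 without control replicate 3 to 0.715 without control replicate 1. Camk2b was also at 0.0033 with median centring, and Nrgn at -0.18 with array weights and -0.53 with RNA integrity in the fit. Camk2a minus Camk2b ran from -0.06 without control replicate 3 to 0.47 without control replicate 1, and the other 3 pairs kept their sign. Median centring moved the median of all genes by 0.02. Low levels, such as those of Grin2c (mean 4.11) and Grm8 (mean 5.06, about that of the median gene), may show only part of a change.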

Other observations

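Grik4 differed more between replicate numbers than between groups. It was at 8.49, 7.80 and 7.79 in the knockdown arrays and at 8.48, 7.79 and 7.46 in the control arrays, so the number 1 arrays of both groups stood above the rest. The number 1 arrays were instead the lowest of each group for Camk2d, Cacng5 and Grik1.

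Probe sets outside the comparison bore on 8 of the 53 genes. The second probe sets of Grin2b, Grin2c, Grm7 and Shank3 had differences of -0.06, -0.03, 0.04 and 0.09. A probe set shared between Homer3 and Ddx49 had one of 0.14 and a probe set shared between Grm8 and Mir592 one of 0.00. By limma 0 of these, and of the second probe sets of Cacng2 and Grin2d, passed the test over all probe sets, and 1 of the 8, that of Grin2d, had an unadjusted p under 0.05.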
